A study of Mus musculus with 16 samples.

Results

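The proteasome genes were followed in epithelial cells of the mouse colon that were sorted by whether they carried the tdTom label of the Atoh1 lineage. Members were the genes whose mouse symbol starts with Psma, Psmb, Psmc, Psmd, Psme, Psmf or Psmg followed by a digit, without the 3 immunoproteasome subunits Psmb8, Psmb9 and Psmb10 and without 4 pseudogenes. The rule uses names alone, and it found 47 members among the 45513 genes counted. RNA sequencing was done on 16 libraries from 8 Atoh1(WT)CreERT2; Rosa26 tdTom/+ mice, with EpCAM+ tdTom+ and EpCAM+ tdTom- live cells of every mouse, so that each group held 8 libraries. Every mouse carried both alleles, and per the labels every mouse received 1 mg of tamoxifen per day on 3 days. CreERT2 is made from the Atoh1 locus and the reporter stays on once recombined. The tdTom+ cells are thus those that expressed Atoh1 while tamoxifen acted, and their descendants, and tdTom- are all other EpCAM+ cells. Per the paper, enteroendocrine cells come from Atoh1+ precursors but do not keep Atoh1 on when mature, so unlabelled ones can be among tdTom- cells. The groups therefore differ in cell makeup, and ages were not given in the labels.

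The proteasome is the protease complex that degrades proteins tagged with ubiquitin. Its barrel, the 20S core particle, is built of alpha rings that gate the entry and beta rings that hold the catalytic sites. The 19S regulatory particle caps the barrel, with a base of ATPases that unfold the substrate and a lid that removes the ubiquitin chain. Other activators can bind the barrel in its place, and in cells exposed to interferon the catalytic subunits are exchanged for immunoproteasome subunits. Goblet cells, the main secretory cells of the colon, make large amounts of mucin in the endoplasmic reticulum, and proteins that misfold there are handed to the proteasome.

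Total counts ran from 16482530 to 24218367 in tdTom+ libraries and from 18318172 to 45791503 in tdTom- libraries, where the library of mouse 4 was the deepest and no other exceeded 20668605. Levels are given as CPM, counts scaled to a common library size with edgeR's TMM factors, and 3 counts, taken as the floor, corresponded to 0.0583 to 0.194 CPM, which covers counting error only. Lineage markers went with the labels: all 8 goblet markers (among them Muc2 and Atoh1) rose in tdTom+ cells with a median log2 difference of 4.08, and all 7 absorptive markers fell with a median of -4.47. Of the other lists, 5 of 5 enteroendocrine, 3 of 4 tuft, 3 of 3 stem and 6 of 6 proliferation genes were lower in tdTom+ cells, the last with a median of -0.36. In such sorted bulk samples a difference in the share of a cell type and a difference in RNA per cell cannot be told apart.

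Most proteasome genes differed little between tdTom+ and tdTom- cells. Of the 45 members that passed edgeR's filter on low counts, 5 were higher in tdTom+ cells, 6 were lower and 34 did not pass an adjusted p of 0.01 in edgeR's quasi-likelihood test with the mouse as a block. Members past the threshold thus made up 24.4%, while 57.2% of the 15841 genes tested passed it, 28.4% higher and 28.9% lower. Among genes at a mean of 50 CPM or more, where counting error is small, 8 of 35 members passed (22.9%), beside 69.6% of 4278 genes. The median log2 fold change of the members was -0.006 and the median size of their change was 0.095, beside 0.003 and 0.33 over all genes tested.

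The precision was enough to bound these differences. Standard errors of the members' log2 fold changes ran from 0.04 to 0.14, and for 40 of 45 members (88.9%) the whole 95% interval lay within 0.5 of 0 on the log2 scale. The same held for 46.3% of all genes tested and for 57.2% of those at 50 CPM or more. The members' fold changes spanned -0.57 to 0.36. Libraries of both groups were fully separated for 2 members, Psmd4 and Psmd10, against 30.5% of all genes tested. Summed over all members, the level had a median of 3739.9 CPM in tdTom+ and 3691.7 CPM in tdTom- libraries, with tdTom+ above tdTom- in 3 of the 8 pairs.

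**Figure D1:**
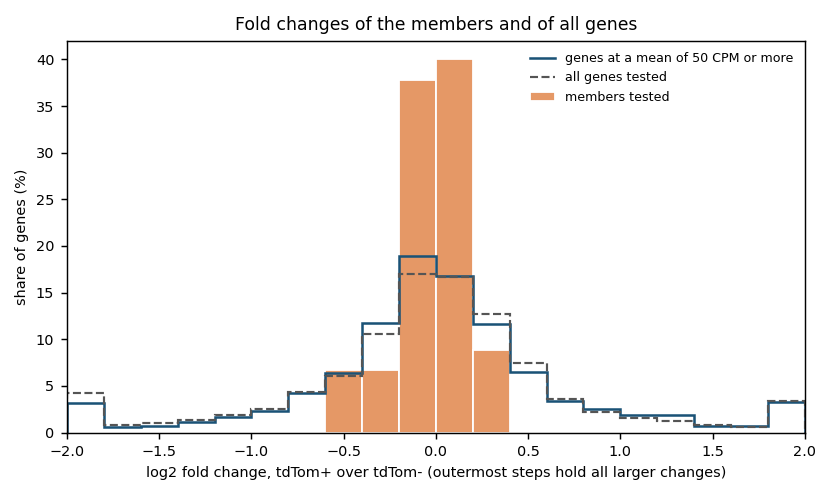
Share of genes (%) by log2 fold change of tdTom+ over tdTom- cells in steps of 0.2, with bars for the 45 members tested, a solid line for genes at a mean of 50 CPM or more and a dashed line for all genes tested. The members lie between -0.57 and 0.36 while the lines run to the outermost steps, which hold all larger changes.

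**Figure D2:**
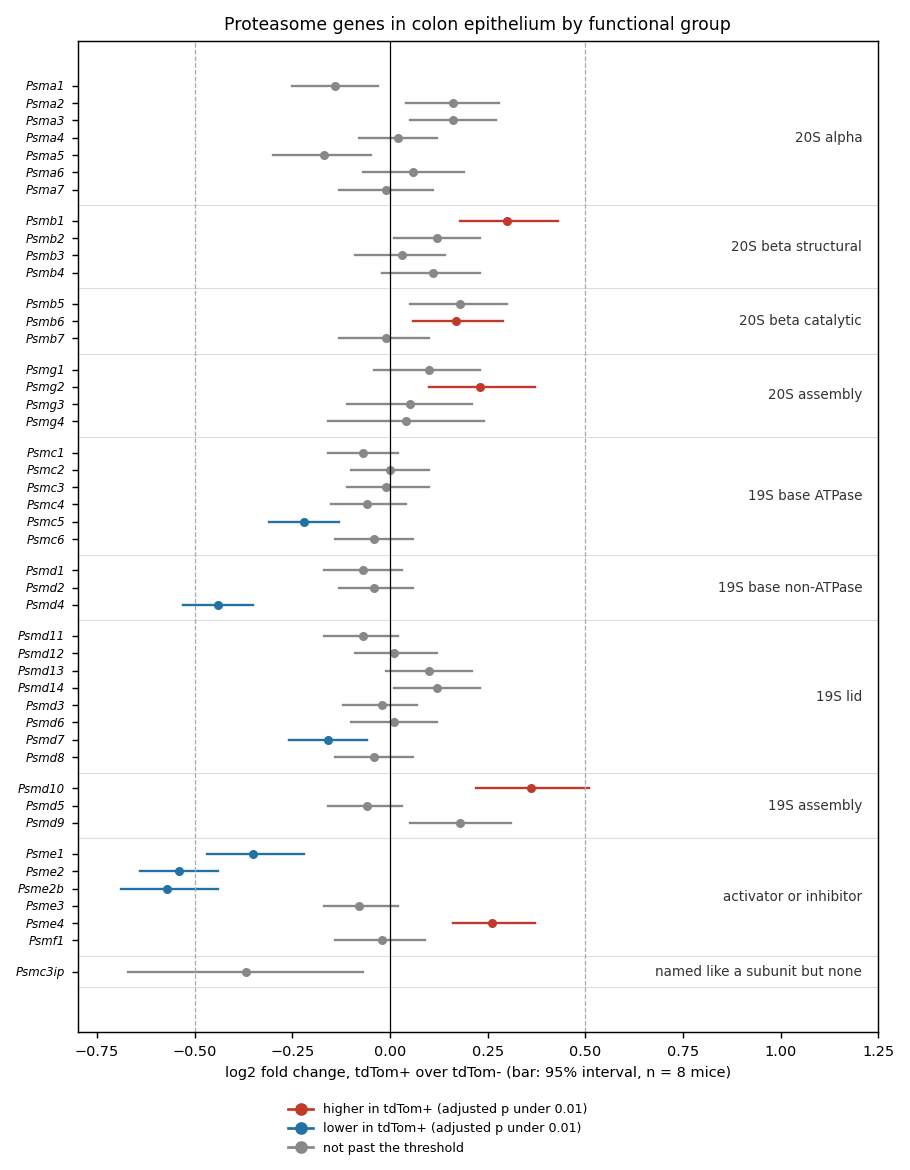
Log2 fold change of tdTom+ over tdTom- cells for each of the 45 tested members, grouped by role; points are edgeR estimates over 8 mice, bars their 95% intervals, colours the call at an adjusted p of 0.01, and dashed lines mark 0.5 on either side of 0. Most intervals lie between the dashed lines. The activators Psme1, Psme2 and Psme2b and the ubiquitin receptor Psmd4 stand to the left, as does Psmc3ip (-0.37), which was not called.

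The alpha rings of the core particle, which form the gate of the barrel, held no called member. All 7 tested alpha genes missed the threshold, with log2 fold changes between -0.17 and 0.16. Psma3 had 87.8, 111.0 and 140.4 CPM as the lowest, median and highest tdTom+ value and 87.2, 99.0 and 116.0 CPM in tdTom- cells. Its ranges overlapped, and its log2 fold change was 0.16 with an SE of 0.05 (adjusted p = 0.0122). Psma2 was alike at 0.16 with an SE of 0.06 (adjusted p = 0.0183). Psma5 pointed the other way, at -0.17 (SE 0.06, adjusted p = 0.0172), and so did Psma1, at -0.14 (SE 0.05, adjusted p = 0.0213). Psma4, Psma6 and Psma7 had values of 0.02, 0.06 and -0.01. Psma8, which takes the place of Psma7 in the testis, had 0 counts in every library, which allows a level of up to 0.0583 to 0.194 CPM by library. Summed over the alpha genes, the log2 ratio of the groups ran from -0.17 to 0.19 between mice and was above 0 in 4 of 8.

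Reads of close gene copies could be split or lost for part of these genes. Annotated pseudogenes at least 95% identical over 200 bases or more held counts equal to 27.15% of those of Psma5, 15.75% of Psma3, 13.06% of Psmb3, 9.41% of Psma4, 9.1% of Psmd2, 7.42% of Psmc1 and 4.38% of Psmd11. With these copies added to their parent gene, an alternative chosen after seeing the data, Psma5 and Psma3 kept -0.17 and 0.16. Psmd13, a lid subunit, shares its strand and position with a processed pseudogene, so its value is uncertain.

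The structural beta genes, which complete the beta rings without a catalytic site of their own, all had positive fold changes, and 1 of 4 was called. Psmb1 was that gene, and it was also the member with the most RNA per length. It had 152.1, 177.9 and 244.2 CPM as the lowest, median and highest tdTom+ value, and 139.4, 145.1 and 171.0 CPM in tdTom- cells. The ranges overlapped, but in each of the 8 mice the tdTom+ value was the higher. Its mean was 188.8 ± 36.5 CPM (SD, n = 8) against 151.0 ± 12.0 CPM, a log2 fold change of 0.30 (SE 0.06, 95% interval 0.18 to 0.43, edgeR adjusted p = 1.75e-04). Psmb2, Psmb3 and Psmb4 had 0.12, 0.03 and 0.11 and were not called. Summed over the 4 genes tdTom+ cells had the higher level in every one of the 8 mice, by 0.01 to 0.43 on the log2 scale.

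Of the catalytic beta genes, Psmb6, which makes the caspase-like subunit, was higher in tdTom+ cells by a narrow margin. It had 83.2, 96.7 and 135.0 CPM in tdTom+ and 81.2, 88.4 and 105.3 CPM in tdTom- libraries as lowest, median and highest. The ranges overlapped almost throughout, and the call rests on the pairing: the tdTom+ value was higher in 8 of 8 mice, with a log2 fold change of 0.17 (SE 0.05, adjusted p = 0.00973). Without the mouse as a block the adjusted p was 0.0842, and the call was also lost without mouse 1, 2, 3 or 7, at adjusted p of 0.0171, 0.0182, 0.0223 and 0.0172, and with upper-quartile scaling (adjusted p = 0.0151). Psmb5, the chymotrypsin-like subunit and target of proteasome inhibitor drugs, had a similar value of 0.18 (SE 0.06, adjusted p = 0.0147) with 59.5, 74.7 and 96.3 CPM in tdTom+ and 59.7, 66.0 and 81.2 CPM in tdTom- libraries. Psmb7, the trypsin-like subunit, had -0.01 (95% interval -0.13 to 0.10). Psmb11, the beta subunit of thymic cortical epithelium, had 78 counts over all libraries and was not tested.

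The ATPases of the base, which pull the substrate into the barrel, were close to even apart from 1 gene. Psmc5 had 63.9, 72.8 and 76.6 CPM in tdTom+ and 74.0, 84.6 and 91.3 CPM in tdTom- libraries as lowest, median and highest. The ranges overlapped at their ends, and all 8 mice had the lower value in tdTom+ cells, with a log2 fold change of -0.22 (SE 0.04, adjusted p = 2.75e-04). Psmc1, Psmc2, Psmc3, Psmc4 and Psmc6 had -0.07, 0.00, -0.01, -0.06 and -0.04, and none was called. The 95% intervals of these 5 lay between -0.16 and 0.10.

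The member with the clearest difference among the subunits of the particle itself was Psmd4, a receptor of the base that binds ubiquitin chains. It had 62.3, 70.4 and 81.0 CPM in tdTom+ libraries and 87.8, 96.7 and 110.0 CPM in tdTom- libraries as lowest, median and highest. No tdTom+ library reached the lowest tdTom- value. The means were 71.6 ± 5.61 and 97.2 ± 7.13 CPM (SD, n = 8), with a log2 fold change of -0.44 (SE 0.04, 95% interval -0.53 to -0.35, edgeR adjusted p = 4.63e-08). The values without each mouse in turn stayed between -0.44 and -0.43. The scaffold subunits of the base, Psmd1 and Psmd2, had -0.07 and -0.04 and were not called. Adrm1, which encodes another ubiquitin receptor of the base and is named outside the Psm series, was lower as well, at -0.20 (SE 0.05, adjusted p = 8.84e-04). It had 47.1 to 51.2 CPM in tdTom+ and 52.5 to 62.1 CPM in tdTom- libraries. Sem1, a small lid subunit, was higher at 0.28 (SE 0.08, adjusted p = 0.00485), a call lost without the block (adjusted p = 0.0408), without mouse 1 (0.0172) or mouse 7 (0.0110), and in mice 5 to 8 alone (0.101). In mice 1 to 3 alone Adrm1 had -0.17 with an adjusted p of 0.143.

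In the lid 1 of 8 members was called, with Sem1 outside this count. Psmd7, the partner of the deubiquitylase, had 72.8, 78.1 and 82.1 CPM in tdTom+ and 76.4, 88.7 and 101.6 CPM in tdTom- libraries, and it was lower in tdTom+ cells in 7 of 8 mice. Its log2 fold change of -0.16 (SE 0.05, adjusted p = 0.00728) lost the threshold without the block (adjusted p = 0.0233) and without mouse 2, 3, 4, 6 or 8, with adjusted p of 0.0144, 0.0211, 0.0469, 0.0341 and 0.0216. Psmd14, the deubiquitylase, had 0.12 (SE 0.05, adjusted p = 0.0437). Psmd3, Psmd6, Psmd8, Psmd11, Psmd12 and Psmd13 had values from -0.07 to 0.10. Taken by particle, 2 of 14 tested genes of the 20S core were higher and 0 lower (14.3% called). Of the 17 members in the 19S particle, 3 were lower and 0 higher (17.6% called). Adrm1, called lower, and Sem1, called higher, belong to the particle too and are outside this count. Both shares were below those of all genes tested, of which 28.4% were higher and 28.9% lower. Of these calls, Psmb6 and Psmd7 were lost in 8 and 9 of 19 alternatives. The median fold change was 0.084 for the core members and -0.04 for the cap members. The difference between the particles was not tested.

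Among the assembly chaperones, Psmd10 (gankyrin), which helps build the base, was the member that rose most. It had 21.4, 24.3 and 31.7 CPM in tdTom+ and 17.3, 19.6 and 21.1 CPM in tdTom- libraries as lowest, median and highest. The groups did not overlap, though the gap was small. Its log2 fold change was 0.36 (SE 0.07, 95% interval 0.22 to 0.51, edgeR adjusted p = 1.29e-04), and it was the 1 member on the X chromosome. The other base chaperones, Psmd9 and Psmd5, had 0.18 (adjusted p = 0.0158) and -0.06 (adjusted p = 0.205). Psmg2, a chaperone of the alpha ring, rose by 0.23 (SE 0.06, adjusted p = 0.00340) in 7 of 8 mice, from a median of 14.8 to 17.1 CPM. Its call was lost without mouse 7 (adjusted p = 0.0128) and in mice 1 to 3 alone (0.26, adjusted p = 0.0776). Psmg1, Psmg3 and Psmg4 had 0.10, 0.05 and 0.04 and were not called. Pomp, the chaperone that closes the core particle, had 0.03 (95% interval -0.09 to 0.15).

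**Figure D3:**
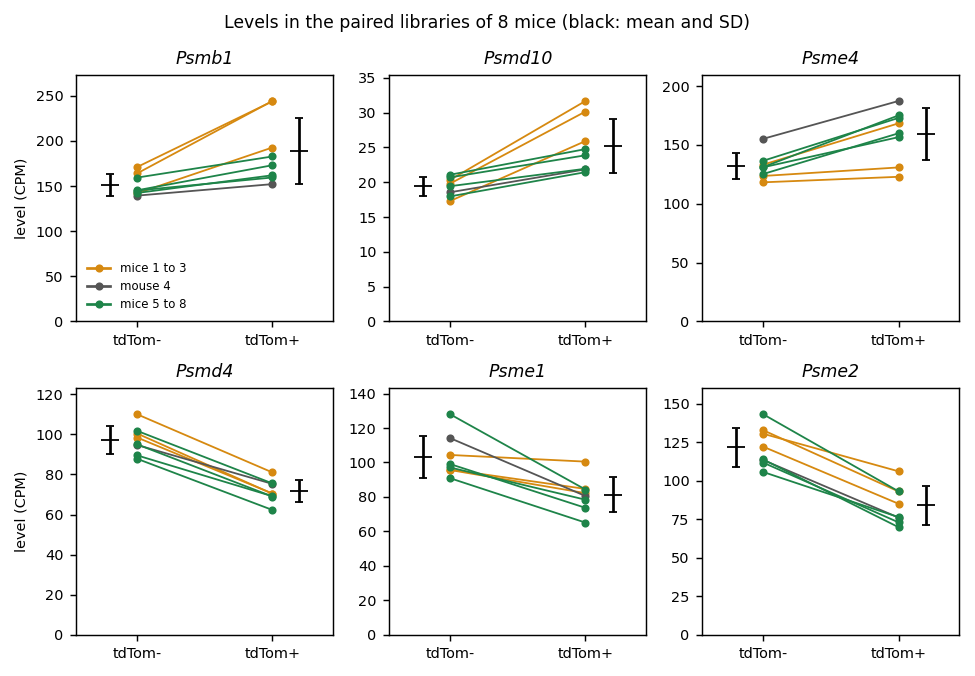
Levels in CPM of 6 members in the tdTom- and tdTom+ library of each mouse, joined by a line and coloured by mouse number series; black marks are group means with SD, n = 8. All 8 lines rise for Psmb1, Psmd10 and Psme4 and fall for Psmd4, Psme1 and Psme2.

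Psme1 and Psme2, which form the PA28 ring that interferon induces, were lower in tdTom+ cells, while Psme4 (PA200), an activator of the nucleus that opens the barrel without ATP, was higher. Psme1 had 65.1, 81.4 and 100.5 CPM in tdTom+ and 90.8, 98.1 and 128.0 CPM in tdTom- libraries as lowest, median and highest. The ranges overlapped in their ends, with the tdTom+ value lower in 8 of 8 mice and a log2 fold change of -0.35 (SE 0.06, adjusted p = 4.76e-05). Psme2 had 69.9, 80.7 and 106.1 CPM against 105.7, 118.0 and 143.2 CPM, so that the highest tdTom+ value barely passed the lowest tdTom- value. Its log2 fold change was -0.54 (SE 0.05, 95% interval -0.64 to -0.44, edgeR adjusted p = 2.32e-08). Psme2b had -0.57 (SE 0.06, adjusted p = 1.91e-07), but its transcript is 99.37% identical to that of Psme2 over 794 bases, so both rows may count the same molecules and Psme2b is no separate evidence.

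Psme4 had 122.9, 164.1 and 187.3 CPM in tdTom+ and 118.2, 131.1 and 155.2 CPM in tdTom- libraries. The ranges overlapped, yet all 8 mice had the higher value in tdTom+ cells, with a log2 fold change of 0.26 (SE 0.05, 95% interval 0.16 to 0.37, edgeR adjusted p = 1.58e-04). Psme3, the PA28 form of the nucleus, and Psmf1, an inhibitor, had -0.08 (95% interval -0.17 to 0.02) and -0.02 (95% interval -0.14 to 0.09). In all, 4 of 6 activator or inhibitor genes were called (66.7%, beside 57.2% of all genes), 1 higher and 3 lower, of which Psme2 and Psme2b cannot be counted as separate genes.

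The inducible subunits that replace Psmb5, Psmb6 and Psmb7 in the immunoproteasome were lower in tdTom+ cells, by more than most members. The call was made for 3 of 3, beside 28.9% of all genes tested that were lower. Psmb8 had 10.2, 13.7 and 22.3 CPM in tdTom+ and 21.1, 27.3 and 47.6 CPM in tdTom- libraries, a log2 fold change of -1.01 (SE 0.07, adjusted p = 6.01e-10). Psmb10 fell by 0.74 on the log2 scale (SE 0.04, adjusted p = 7.82e-11) and its groups did not overlap, and Psmb9 fell by 0.47 (SE 0.07, adjusted p = 2.20e-05). The call of Psmb9 was lost without the block (adjusted p = 0.0194) and in mice 1 to 3 alone (-0.32, adjusted p = 0.0667). Per length, Psmb8 reached a median of 0.0586 of the level of Psmb5 in tdTom+ and 0.139 in tdTom- libraries, and the highest tdTom+ ratio, 0.0921, was below the lowest tdTom- ratio, 0.0957. Psmb10 over Psmb7 was 0.504 to 0.712 in tdTom+ and 0.825 to 1.18 in tdTom- libraries, again without overlap. Psmb9 over Psmb6 had medians of 0.0461 and 0.0801, with overlapping ranges.

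Leukocyte markers moved in the same direction as these genes. Ptprc, the pan-leukocyte marker CD45, had 1.27 to 3.02 CPM in tdTom+ and 3.27 to 9.56 CPM in tdTom- libraries, and Lyz2, of macrophages, a median of 0.494 and 1.95 CPM. Summed over the 4 immune markers the range was 1.9 to 5.05 CPM against 4.39 to 25.9 CPM, while Cd3e of T cells and Cd79a of B cells had medians of 0.0198 and 0 CPM in tdTom+ and 0.0952 and 0.0498 CPM in tdTom- libraries, under the highest floor. Of the stromal genes, Pecam1 of endothelium was lower in tdTom+ cells by 1.57 on the log2 scale, at a mean of 0.872 and 2.63 CPM, Vim was not called at -0.48, and Col1a1 and Col3a1 had means of at most 0.246 CPM. The part of these cells in the values of Psme1, Psme2 and the immunoproteasome genes was not tested. Psmc3ip, a partner of meiotic recombinases that matches the naming rule but is no subunit, had a mean of 2.08 and 2.67 CPM and -0.37 (SE 0.14, adjusted p = 0.0304).

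Subunits of a complex that is assembled in fixed proportions differed widely in RNA level. Per kilobase of exon, the 14 tested core members ran from 27.2 CPM per kilobase for Psma3 to 164.0 for Psmb1, a ratio of 6.03. The 17 members of the 19S particle ran from 11.8 for Psmd11 to 79.3 for Psmd8, a ratio of 6.72. The median was 64.5 CPM per kilobase in the core and 30.1 in the cap. Psmb1, Psma2 (118.2) and Psma6 (100.1) were the highest members, and Psmd9 (2.98), Psmg3 (2.98) and Psmc3ip (1.31) the lowest tested. The length used joins all annotated exons of a gene, which lowers the value of a gene with long unused exons. Within tdTom+ and tdTom- cells the ratios were close to each other, 6.33 and 5.7 in the core and 6.81 and 6.64 in the cap.

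**Figure D4:**
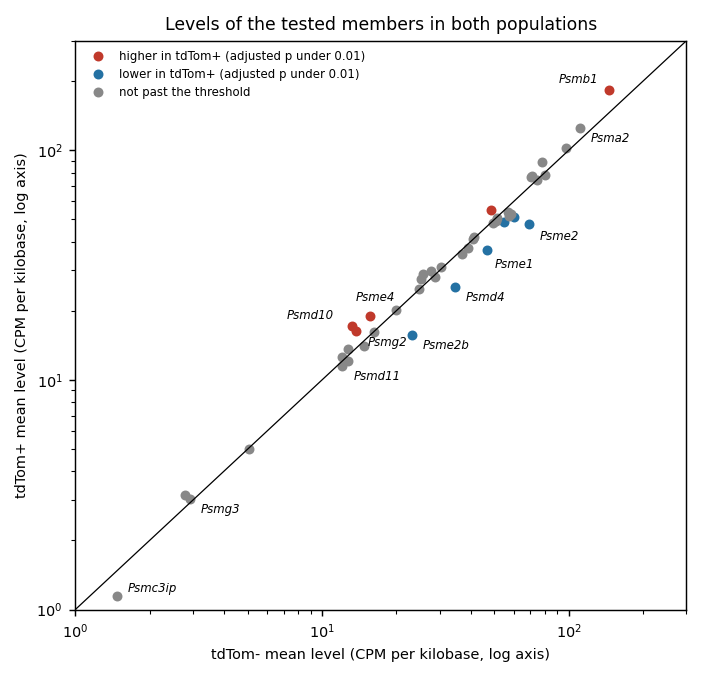
Mean level of each of the 45 tested members in tdTom- (x) and tdTom+ cells (y) in CPM per kilobase of exon, both on log axes, with the line of equal levels and colours for the call. The points follow the line over the whole span from Psmc3ip (mean over both groups 1.31) to Psmb1 (164.0).

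The members' fold changes were not equal in all mice, although no member passed the test of a difference between mouse number series. The numbers in the labels form 3 series, mice 1 to 3, mouse 4 and mice 5 to 8. Median log2 differences of the members within a mouse were 0.095, 0.078 and 0.082 in mice 1 to 3, -0.08 in mouse 4, and 0.010, -0.076, 0.006 and -0.095 in mice 5 to 8. The medians of mice 1 to 3 were all above those of the other mice. The test of the difference itself, an edgeR interaction of population and series chosen after seeing the data, called 0 of 45 members and 0 of 15851 genes (0.0%). An unadjusted p under 0.05 was found for 11 of 45 members and for 1795 of 15851 genes, with none left after adjustment. The estimate was positive for 35 of 45 members and for 7434 of 15851 genes. The median difference was 0.13 for the members and -0.02 for all genes, on the log2 scale.

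Among the structural beta genes, all 4 were at an unadjusted p under 0.05 in this interaction, and none was called after adjustment. The interaction was chosen after seeing the data, so the values of single members by series are a description only. Psmb1 had a log2 fold change of 0.51 in mice 1 to 3 and 0.19 in mice 5 to 8, and Psmb4 had 0.32 and -0.01. Psmb5 had 0.39 and 0.04, and Psmd10 0.61 and 0.22; fitted on mice 5 to 8 alone, Psmd10 had an adjusted p of 0.0135. Psme1 had -0.15 in mice 1 to 3, which alone gave an adjusted p of 0.181, and -0.45 in mice 5 to 8. Psmd4 had -0.48 and -0.44, Psme2 -0.44 and -0.60, and both passed the threshold in each series. Psmc5 and Psme4 had -0.18 and 0.16 in mice 1 to 3, at adjusted p of 0.104 and 0.169, and -0.23 and 0.34 in mice 5 to 8. The estimates for goblet markers were also larger in mice 1 to 3 than in mice 5 to 8. Examples are 4.19 and 3.12 for Zg16 and 4.90 and 4.29 for Muc2. The interaction called 0 of 15851 genes, and the part of the goblet difference in the members' values was not tested.

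**Figure D5:**
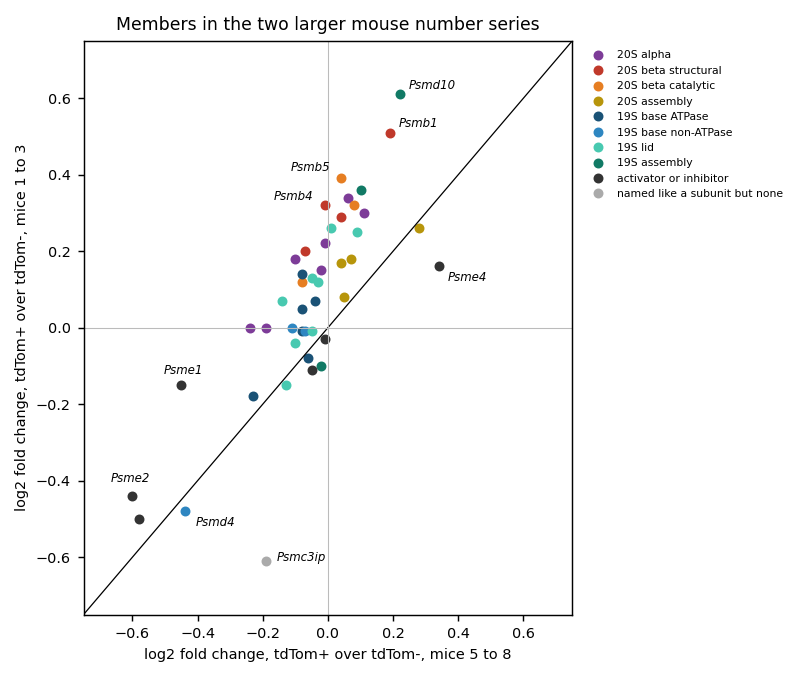
Log2 fold change of tdTom+ over tdTom- cells for each member fitted in mice 5 to 8 (x) and in mice 1 to 3 (y), coloured by role, with the line of equal values. Of the 45 members, 35 have a positive interaction estimate (mice 1 to 3 above mice 5 to 8), beside 7434 of 15851 genes. Psmd4 is near the line.

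Of 15 tested genes that work around the proteasome, 4 were higher and 4 lower (53.3%), close to the 57.2% called over all genes. Txnl1, a thioredoxin of the 19S particle, rose by 0.53 (SE 0.06, adjusted p = 1.46e-07), and Ubqln2, a shuttle that brings ubiquitin-tagged proteins to the proteasome, by 0.43 (SE 0.05, adjusted p = 9.58e-07), both without overlap of the groups. Zfand5, which raises proteasome activity in wasting muscle, was lower at -0.31 (SE 0.05, adjusted p = 3.62e-05), a call lost without the block (adjusted p = 0.0286). Of the ubiquitin genes, Uba1, the activating enzyme, and Rps27a, a ubiquitin fused to a ribosomal protein whose reads can be shared with processed copies, were higher by 0.34 and 0.62; in mice 1 to 3 alone Uba1 had an adjusted p of 0.0116.

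Nfe2l1 and Nfe2l2, transcription factors known to drive proteasome genes, were lower in tdTom+ cells. Of the core and cap members, 26 of 31 were not called (16.1% called, beside 57.2% of all genes tested). A link between the RNA of these factors and that of the proteasome genes was not tested. Nfe2l1 (Nrf1), which induces proteasome genes when the complex is inhibited, had 149.3, 178.8 and 194.4 CPM in tdTom+ and 198.8, 206.9 and 216.4 CPM in tdTom- libraries, without overlap. Its log2 fold change was -0.24 (SE 0.05, adjusted p = 8.13e-04). Nfe2l2 (Nrf2), the regulator of the antioxidant response, fell by 0.88 (SE 0.05, adjusted p = 6.99e-11), and its partner Maff fell by 1.08 (SE 0.09, adjusted p = 8.08e-09). Ngly1, the enzyme that removes sugars from Nfe2l1 as it is activated, rose by 0.28 (SE 0.06, adjusted p = 3.92e-04), a call lost in mice 1 to 3 alone (adjusted p = 0.0349). The related Mafg and Mafk had -0.12 and -0.15 and were not called. In all, 2 of the 8 listed genes were higher and 3 lower (62.5%), near the 57.2% called over all genes. Besides Ngly1, the higher one was Vcp (0.22, SE 0.05, adjusted p = 0.00128). The call of Vcp was lost without the block (adjusted p = 0.0129) and in mice 1 to 3 alone (0.17, adjusted p = 0.208).

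Promoters of the members were read for the class of site that Nfe2l1 and Nfe2l2 bind, the antioxidant response element. RefSeq windows from 250 bases before to 50 after the gene start (GRCm38.p6) matched 39 of 47 members. The letters TGACNNNGC, searched on both strands, were found for 6 of 39 members (15.4%) and for 14.0% of 27025 genes. These members were Psmb5, Psmb6, Psmc6, Psmd12, Psmd9 and Psme4. The looser TGANNNNGC, which includes every match of the former, was found for 56.4% and 45.0%, and CCAAT, the box that NF-Y binds, for 35.9% and 41.1%. Of the 6 members, Psmb6 and Psme4 were called higher, Psmb5, Psmc6, Psmd12 and Psmd9 were not called. To show the sites of the catalytic genes and of the activator that rose, 30 bases around each match follow, 5′ to 3′ on the strand of the gene, with the match in capitals.

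Psmb5, chr14:54618023-54618052, minus strand: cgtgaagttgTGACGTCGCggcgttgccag

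Psmb6, chr11:70525338-70525367, plus strand: ctaaagagagTGACGGAGCgctttacgacg

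Psme4, chr11:30771758-30771787, plus strand: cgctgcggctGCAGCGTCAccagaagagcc

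The match of Psmb5 starts 47 bases and that of Psmb6 9 bases before the annotated start, and that of Psme4, on the reverse strand, 7 bases before it. A core of the site that interferon-induced factors bind, GAAANNGAA on either strand, was searched after the values were seen. It was found for 7 of 39 members (17.9%) and 9.76% of genes. Of these members, Psme1 and Psmd4 were lower in tdTom+ cells, and Psmb3, Psmb4, Psmc2, Psmd9 and Psmg4 were not called. Psme2, Psme2b and Psmc5 were also called lower, and their windows held no match. The same was true of Psmb6, Psmd10 and Psme4, which were called higher. Psmd7, Psmb1 and Psmg2 were called but had no window. The match of Psme1 starts 10 bases after the gene start, and it is printed because Psme1 is the activator of this list that was lower.

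Psme1, chr14:55578494-55578523, plus strand: gagctgtgctTTCGCTTTCccttcccgctg

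These matches are letters in a window of fixed size and no measured binding.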

How the data were processed

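Poly(A) RNA of sorted colon cells was sequenced from stranded libraries as single-end reads. The authors aligned them to GRCm38.p3 with TopHat2 2.1.1 and deposited raw counts per gene from featureCounts (1.5.0-p1 per the file headers; the submitters' processing notes name Subread 1.5.2 and DESeq2 1.14.1), from primary alignments on the reverse strand of exons, without normalization, for 45513 genes. Symbols came from GENCODE M21 for 44671 genes. Groups and mouse numbers were taken from the labels.

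Genes that passed filterByExpr were fitted by quasi-likelihood (glmQLFit, glmQLFTest) after TMM scaling in edgeR 4.0.16 (R 4.3.3), at a Benjamini-Hochberg adjusted p under 0.01 over all genes, with the mouse as a block, since both libraries of a number come from 1 mouse. Deviations from group means correlated between the libraries of a mouse at 0.22 or more, and at 0.17 or less between mice. SEs were derived from the F statistic. Alternatives were no block, DESeq2 1.42.0, limma-voom (limma 3.58.1), other scalings, filters and thresholds, each mouse left out, and either mouse series alone. The fits were tested on simulated data. Named members were the catalytic genes, each role's extremes, called genes, uncalled and untested genes and the extremes of level; from other lists up to 4 called genes, to which Vcp, Mafg and Mafk were added after their values were seen. Members and lists were chosen with earlier results of these data known. No pair of libraries in a group agreed within sampling noise. A result on the ubiquitin gene list is not reported here.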

Additional observations from a re-analysis of the deposited data

Results flagged for a closer look

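In 10 of 172 groups of 8 libraries, made up of the members and listed genes in each population, the highest or lowest library stood further from its neighbour than Dixon's 95% limit allows. About 8.6 such groups are expected by chance. A single member was among them: Psmc6, an ATPase of the base, had 91.0 CPM in the tdTom- library of mouse 6, with the other 7 tdTom- libraries between 74.0 and 80.5 CPM.

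Of the partners and regulators, Adrm1 had its lowest tdTom+ value, 47.1 CPM, in mouse 7, with the others from 49.4 to 51.2 CPM. Ubqln2 had 30.0 CPM in the tdTom- library of mouse 2, below 36.6 to 43.3 CPM. Maff had 24.5 CPM in the tdTom+ library of mouse 2, above 8.06 to 13.6 CPM.

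The other 6 are marker genes in the tdTom- library of mouse 4, the deepest one, and each was the lowest there. Of the absorptive markers, Aqp8 had 321.7 CPM (others 590.7 to 712.8) and Car4 had 754.9 CPM (others 1040.3 to 1384.7). Of the tuft markers, Trpm5 had 27.2 CPM (others 34.8 to 42.5), Dclk1 had 29.2 CPM (others 41.9 to 53.3) and Avil had 13.6 CPM (others 18.4 to 23.2). Neurod1, of enteroendocrine cells, had 3.67 CPM (others 7.45 to 13.5). Without mouse 4, 10 members were higher and 5 lower in tdTom+ cells, against 5 and 6 with it: Psma2, Psma3, Psmb5, Psmd9 and Psmd14 were gained and Psmd7 lost.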

How the results depend on the processing

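Of 854 values of members over 19 alternatives, 762 had the sign and the call of the reported fit. Another 28 values (9 genes) passed the threshold in addition, 23 (7 genes) lost it, and 41 (15 genes) were uncalled values that changed sign; no called value reversed. Psmb1, Psmd4, Psme2 and Psme2b were called wherever they were tested as separate genes. Without the mouse as a block, which undoes the pairing, 4 members were higher and 5 lower, of 4032 and 4042 genes. Psmb6 and Psmd7 were the member calls lost. Outside the members, Psmb9, Sem1, Zfand5, Ubqln1, Vcp and the markers Lyz2, Avil, Top2a, Mki67 and Mcm2 lost theirs. The count of members higher in tdTom+ cells, 5, became 8 with no filter on low counts, 10 at an adjusted p of 0.05 and 3 in mice 5 to 8 alone. With each mouse left out in turn it ran from 3 (without mouse 7) to 10 (without mouse 4), with 8 without mouse 6. In mice 1 to 3 alone 3 members were lower and the median log2 fold change was 0.116, against 6 and -0.006. The cause of these changes was not tested, except that the series fits hold fewer mice. The 2 members not tested, Psma8 and Psmb11, were at or near 0 counts, and nothing can be said of them at this depth.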
